A study of Ovis aries with 15 samples.

Results

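The aminoacyl-tRNA synthetases are the enzymes that attach each amino acid to its transfer RNA, and their genes were followed in the ovine mammary gland from late pregnancy to lactation. Members were the features of the deposited table that carry 1 of 36 listed synthetase symbols, of which 35 were found among 24691 features. These are 20 genes for cytosolic enzymes and 15 of the 16 listed genes for mitochondrial enzymes, whose symbols end in 2. The symbol CARS2 did not match a feature. All samples came from Romney ewes, 2 years old and in their first parity, whose mammary parenchyma was biopsied with a needle at 135 days of gestation and again at 15 days post partum. RNA of several ewes was pooled for each library, which gave 9 late pregnancy pools and 6 lactation pools. The number of ewes in a pool is given as 3 for both states in the methods of the study but as 2 for lactation in the design text. The pool of each ewe is not stated. By those methods the lactation ewes had also been sampled and pooled in late pregnancy, so libraries of both states hold RNA of the same ewes. The ewes themselves were managed alike on pasture, and they fall into 3 groups by the feed of their own dams. The dams of HM, MM and LM ewes had ad libitum, maintenance and sub-maintenance pasture in early gestation, respectively, followed by maintenance pasture, and each group supplied 3 late pregnancy pools and 2 lactation pools.

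A synthetase activates its amino acid with ATP and transfers it to the matching transfer RNA, and these charged transfer RNAs feed the ribosome. Mammalian cells use separate nuclear genes for most cytosolic and mitochondrial synthetases, whereas KARS and GARS each encode the enzyme of both compartments. The cytosolic enzymes charge the transfer RNAs used for milk proteins, and the mitochondrial enzymes charge those used for the few proteins made from the mitochondrial genome. Several cytosolic synthetase genes are known targets of the transcription factor ATF4, which is translated when amino acids are short or the endoplasmic reticulum is under stress.

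Reads on genes numbered 7597938 to 19823166 in the late pregnancy libraries and 10352962 to 25679416 in the lactation libraries. The 7 genes for caseins, whey proteins and GLYCAM1 took 13.7 to 23.4% of the reads used in late pregnancy libraries and 71.3 to 75.8% in those of lactation. Expression is therefore given as CPM, counts per 1000000 of a library size scaled by the trimmed mean of M values (TMM), and changes are log2 ratios of lactation over late pregnancy with their standard error (SE). A gene was called at an adjusted p under 0.05 in the quasi-likelihood test of edgeR over 13345 genes. On this scale the median log2 change of all tested genes was -0.03, and 51.6% of calls were lower in lactation. The scale decides the direction of most changes below, since scaling to the total reads alone moved that median to -1.94 and upper quartile scaling moved it to -0.18, with 97.3% and 63.7% of calls lower. In the tissue, 7 luminal epithelial markers summed to 1521 to 1877 CPM in late pregnancy and 2384 to 2621 in lactation, with 4 called higher and 1 lower. The 6 T cell markers were all lower, from 43.4 to 70.3 CPM down to 14.1 to 21.0. Of 4 fibroblast markers 3 were lower (352.8 to 626.5 CPM, then 224.9 to 371.8), as were 3 of 3 endothelial markers (140.4 to 191.6, then 85.8 to 124) and 3 of 5 macrophage markers (103.7 to 136.3, then 62.2 to 92.1), with CD14 higher. Of 6 myoepithelial markers 2 were higher and 2 lower (554.5 to 597.2, then 454 to 662.1), and of 5 adipocyte markers 3 could be tested and 0 were called by edgeR. No marker of these lists was at 0 in every library of a state, and the part of cell composition in the synthetase results was not tested.

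Most cytosolic synthetase genes were higher in lactation on the TMM scale, with TARS2 the exception among mitochondrial genes, which were otherwise lower or not called. Of 20 cytosolic genes 15 were called higher and 3 lower (median log2 change 0.87), where 33.1% of all tested genes were called higher, 35.2% lower and 68.4% in either direction. Of 15 mitochondrial genes 1 was called higher and 7 lower, with a median of -0.09, and 7 were not called. With total reads alone as the scale these counts turned to 0 higher and 18 lower for the cytosolic genes and to 0 and 15 for the mitochondrial genes, where 2.64% and 95.2% of all genes were called. Upper quartile scaling gave 15 and 4 for the cytosolic and 0 and 8 for the mitochondrial genes, where 25.6% and 44.9% of all genes were called. The cytosolic median was 0.90 above the median of all genes under each of these scalings, and 16 of 20 cytosolic genes were above it. Each of these scalings shifts all genes of a library alike, so this gap was almost fixed in advance and cannot check the scale. Across the other settings the gap ran from 0.70 to 0.97. The lowest was in limma on quantile-normalized RPKM, with 15 of 20 genes above the median of all genes. The highest was in the lane 8 libraries alone, with 16 of 20. Lane here is the number in a library's column name, whereas the sample descriptions give 2 lanes per library. All LM libraries carry lane 8, so a split by lane also splits the dam groups unevenly. Cytosolic genes higher by more than 2-fold numbered 7, against 9.13% of tested genes. Late pregnancy and lactation libraries were fully apart in the 18 called cytosolic genes and in 5 mitochondrial genes, all of them called lower, where 40.2% of tested genes did not overlap. In tissue RNA, a smaller number of cells of a type and less RNA per cell cannot be told apart.

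**Figure D1:**
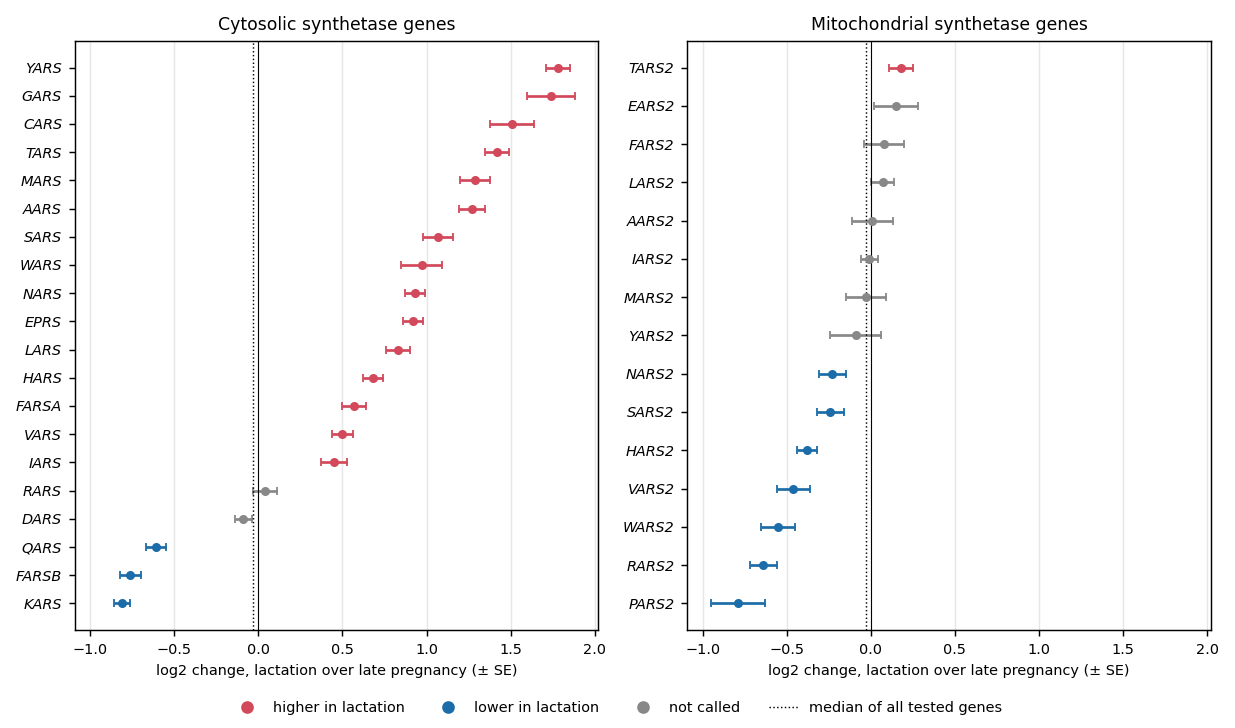
The log2 change of each synthetase gene, lactation over late pregnancy on the TMM scale, with the SE of the edgeR fit as bars, cytosolic genes on the left and mitochondrial genes on the right, and the median of all tested genes as a dotted line at -0.03. Cytosolic genes run from YARS at 1.78 to KARS at -0.81, and mitochondrial genes from TARS2 at 0.18 to PARS2 at -0.79. With total reads alone as the scale, genes called higher here turn negative and the all-gene median moves to -1.94.

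The largest increases were those of YARS, GARS, CARS and TARS, the tyrosyl, glycyl, cysteinyl and threonyl enzymes. YARS (chromosome 2, 233933790 to 233965281, 13 exons) had 48.9, 58.9 and 70.5 CPM as its lowest, median and highest late pregnancy libraries and 191, 211 and 222 CPM in lactation. The lowest lactation library was thus far above the highest late pregnancy library, and the change was 3.43-fold (log2 1.78 ± 0.07, adjusted p = 4.1e-14). Of its reads 70.9% were uniquely placed, and those alone gave a log2 change of 1.82.

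GARS (chromosome 4, 65658225 to 65709855, 17 exons) rose from 25.9, 31.5 and 38.7 CPM to 72.5, 103.5 and 158 CPM, a change of 3.34-fold (log2 1.74 ± 0.14, adjusted p = 1.7e-09). Lactation libraries differed from each other more for GARS than for any other member tested, with a coefficient of variation (CV) of 32.5%, but none reached down to the late pregnancy range. CARS (chromosome 21, 47814165 to 47833642, 18 exons) rose from 19.4, 28.0 and 39.8 CPM to 57.3, 89.1 and 102 CPM (log2 1.51 ± 0.13, adjusted p = 5.3e-09). TARS (chromosome 16, 40228880 to 40250756, 19 exons) rose from 86.8, 95.3 and 103 CPM to 222, 243 and 318 CPM (log2 1.42 ± 0.07, adjusted p = 5.5e-13). For CARS and TARS, too, the ranges of the states did not overlap.

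The other 11 cytosolic genes that rose did so by log2 changes of 1.29 down to 0.45. MARS, which charges both initiator and elongator transfer RNA with methionine, changed by 1.29 ± 0.09 (SE) and AARS, the alanyl enzyme, by 1.27 ± 0.08. SARS, the seryl enzyme, which also serves the transfer RNA for selenocysteine, changed by 1.07 ± 0.09. It had 89.99, 100.5 and 108 CPM in late pregnancy and 161, 209.9 and 271 CPM in lactation. WARS (tryptophan), NARS (asparagine) and EPRS (a fused enzyme for glutamate and proline) changed by 0.97 ± 0.12, 0.93 ± 0.06 and 0.92 ± 0.06. LARS (leucine), HARS (histidine) and FARSA (the alpha subunit for phenylalanine) changed by 0.83 ± 0.07, 0.68 ± 0.06 and 0.57 ± 0.07. VARS (valine) and IARS (isoleucine) had the smallest called increases, at 0.50 ± 0.06 and 0.45 ± 0.08. All 11 had adjusted p of 3.1e-05 or less and no overlap between the states.

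The positions of some of these genes limit their counts. Only 15.9% of the reads on LARS were uniquely placed, and those reads alone gave a smaller log2 change of 0.50, still called, so its level is uncertain. The MARS feature overlaps DDIT3, the WARS feature overlaps WDR25 and the FARSA feature holds a transfer RNA gene. How strand was used in counting is not given in the sources used here, so reads of overlapping genes cannot be told apart. Reads that span exon junctions gave log2 changes of 1.16, 1.06 and 0.50 for MARS, WARS and FARSA.

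KARS, FARSB and QARS fell. KARS, the lysyl enzyme (chromosome 14, 2305946 to 2320030, 14 exons), had the highest level per kilobase of exon of all members in late pregnancy and the largest fall. Its late pregnancy libraries had 292, 317 and 352 CPM as lowest, median and highest, and its lactation libraries 172, 185 and 200.2 CPM. The late pregnancy level was 1.75-fold that of lactation (log2 -0.81 ± 0.05, adjusted p = 6.1e-11), with no overlap. FARSB, the beta subunit of the phenylalanyl enzyme (chromosome 2, 223749636 to 223819337, 17 exons), fell from 104, 109 and 123 CPM to 58.8, 65.4 and 71.4 CPM (log2 -0.76 ± 0.06, adjusted p = 3.3e-10). QARS, the glutaminyl enzyme (chromosome 19, 50859131 to 50866603, 29 exons), fell from 98.4, 111 and 125 CPM to 65.9, 70.6 and 80.4 CPM (log2 -0.61 ± 0.06, adjusted p = 5.6e-08).

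DARS and RARS, the aspartyl and arginyl enzymes, were not called. DARS had 40.6, 43.5 and 50.4 CPM in late pregnancy and 38.2, 41.5 and 46.2 CPM in lactation (log2 -0.09 ± 0.05, adjusted p = 0.131). It passed the threshold as lower in 6 of the other settings, among them upper quartile scaling (adjusted p = 6.7e-04). RARS had 25.4, 30.1 and 33.2 CPM in late pregnancy and 26.3, 30.7 and 37.3 CPM in lactation (log2 0.04 ± 0.07, adjusted p = 0.601). Libraries of the states overlapped for both genes.

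**Figure D2:**
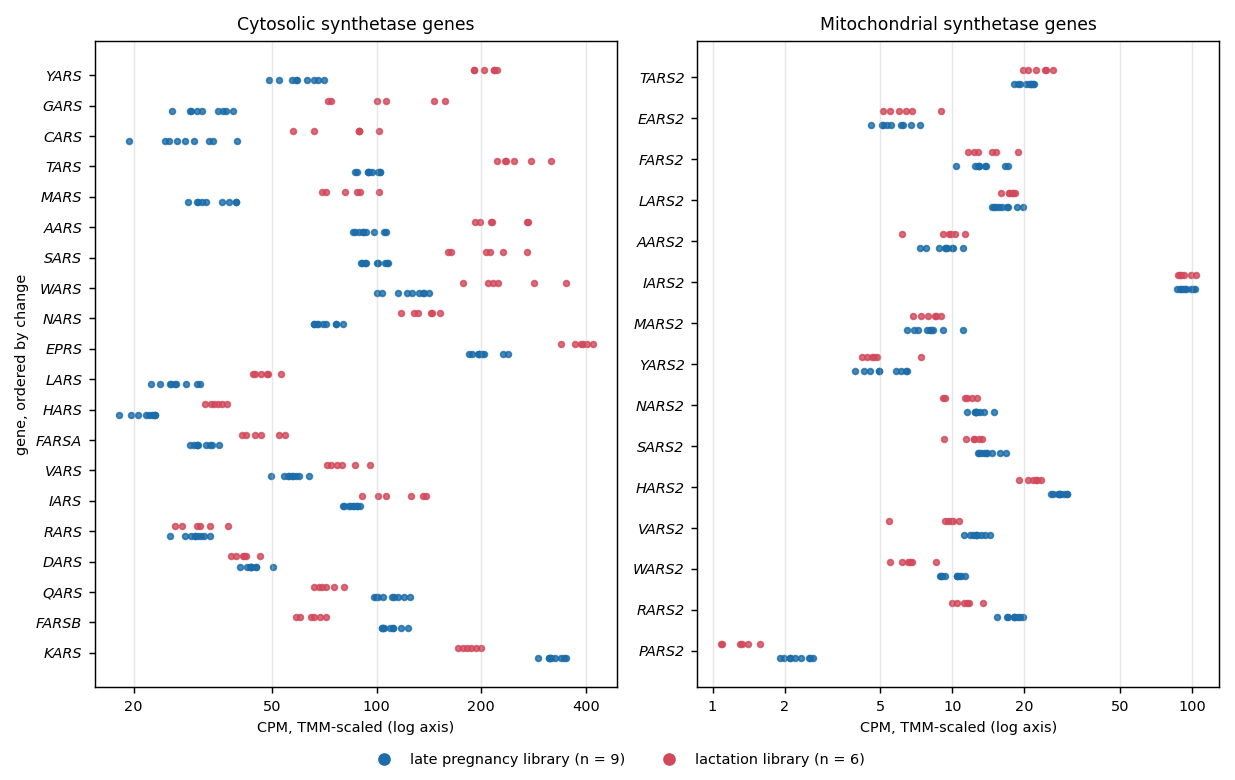
CPM of each synthetase gene in each library on a log axis, TMM-scaled, with late pregnancy libraries in blue (n = 9) and lactation libraries in red (n = 6), genes ordered by their change. The states are apart for YARS, at 48.9 to 70.5 and 191 to 222 CPM, and lie on each other for IARS2, at 86.8 to 103 and 87.2 to 104 CPM. On the scale of total reads alone the lactation libraries would shift to lower values relative to late pregnancy.

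FARSA and FARSB encode the subunits of 1 enzyme, a tetramer of a pair of each, and moved in opposite directions. The ratio of FARSA to FARSB per kilobase of exon was 0.273, 0.335 and 0.391 in the lowest, median and highest late pregnancy libraries and 0.682, 0.819 and 1.05 in lactation. Every lactation library was above every late pregnancy library in this ratio, which does not depend on how libraries are scaled. Behind it were 333 to 916 reads on FARSA and 1138 to 3254 on FARSB in late pregnancy, and 204 to 603 and 301 to 789 in lactation.

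The multisynthetase complex of animal cells holds 8 of the cytosolic enzymes on 3 scaffold proteins. Among the 8, EPRS, IARS, LARS and MARS were called higher, KARS and QARS lower, and DARS and RARS were not called, and the median log2 change was 0.25. Of the 12 cytosolic genes outside the complex 11 were called higher and 1, FARSB, lower, with a median of 1.02. Of all tested genes 33.1% were called higher and 35.2% lower, and a link between complex membership and change was not tested. The scaffold genes were as mixed as the enzymes. AIMP1 fell from 27.1, 31.6 and 34.8 CPM to 16.9, 18.7 and 19.99 CPM (log2 -0.75 ± 0.07, adjusted p = 7.0e-09), with 51.8% of its reads uniquely placed. EEF1E1 rose from 26.7, 28.5 and 32.9 CPM to 39.7, 46.8 and 51.2 CPM (log2 0.67 ± 0.06, adjusted p = 6.8e-09). AIMP2 had 10.8 to 15.0 CPM in late pregnancy and 11.4 to 16.3 CPM in lactation (log2 0.01 ± 0.09, adjusted p = 0.941).

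The synthetases form 2 structural classes with unrelated catalytic folds, and both compartments draw on each. Of 17 class I members, 7 were called higher and 4 lower (median log2 change 0.07), and of 17 class II members 8 and 6 (median 0.08), where 33.1% of all genes were called higher and 35.2% lower, so the counts set neither class apart. EPRS, which joins a class I and a class II enzyme, was counted in neither.

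Of the cytosolic genes, 12 were listed as linked to ATF4, in a list drawn up with earlier results of these data known. All 12 were called higher, with a median log2 change of 1.17 and 7 above 2-fold, where 33.1% of all genes were called higher and 9.13% above 2-fold. Among the other 8, FARSA, HARS and VARS were called higher, KARS, FARSB and QARS lower, and DARS and RARS were not called, with a median of -0.02. With total reads alone as the scale all 12 became negative, from -1.45 in IARS to -0.13 in YARS. From the ATF4 response list of 10 genes, 9 were found and all 9 were called higher, against the same 33.1% of all genes, with a median log2 change of 2.51. ATF4 itself rose from 161, 178 and 194 CPM to 558, 682 and 780.4 CPM (log2 1.92 ± 0.07, adjusted p = 7.3e-15). ASNS, which makes asparagine, rose from 6.21, 9.01 and 13.6 CPM to 46.8, 109.6 and 156 CPM (log2 3.46 ± 0.21), and PSAT1 of serine synthesis by 2.51 ± 0.22. The largest log2 changes of that list were 6.17 ± 0.35 in CHAC1, a glutathione-degrading enzyme, and 6.16 ± 0.42 in TRIB3, a pseudokinase. Late pregnancy libraries held only 2 to 18 reads on CHAC1 and 1 to 10 on TRIB3, so the size of these changes is uncertain. The smallest were 0.73 ± 0.17 in DDIT3 and 0.57 ± 0.23 in PHGDH, both with overlapping states. SESN2 and ATF5 changed by 2.70 ± 0.35 and 1.68 ± 0.23. For SESN2 the size is uncertain too, with 2 to 19 reads in late pregnancy libraries and a transfer RNA gene within its feature. The authors' RPKM, which are scaled to reads on genes alone, gave smaller rises or falls. Mean RPKM of ATF4 was 213.8 in late pregnancy and 235.0 in lactation, and that of ATF5 went from 19.6 to 18.8. DDIT3 fell from 10.9 to 5.47 and PHGDH from 9.52 to 4.30, while TRIB3, ASNS, CHAC1, SESN2 and PSAT1 stayed higher in lactation.

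The mitochondrial synthetase genes changed less than the cytosolic genes, and their called changes were mostly falls. Of the 15 genes 7 were called lower and 1 higher, where 35.2% and 33.1% of all tested genes were. Their median differed from that of all tested genes by only -0.06 on the TMM scale, with 7 of 15 above it. The median thus does not set them apart from other genes. PARS2, the prolyl enzyme (chromosome 1, 28960037 to 28961545, 1 exon), had the largest fall of the mitochondrial genes and the lowest counts of all members, at 23 to 69 reads per library in late pregnancy and 5 to 15 in lactation. Its level went from 1.92, 2.21 and 2.63 CPM to 1.08, 1.32 and 1.58 CPM (log2 -0.79 ± 0.16, adjusted p = 1.7e-04). RARS2, the arginyl enzyme (chromosome 8, 49477775 to 49555378, 20 exons), fell from 15.4, 18.04 and 19.8 CPM to 10.0, 11.4 and 13.4 CPM (log2 -0.64 ± 0.08, adjusted p = 3.0e-07). Both had lactation libraries entirely below those of late pregnancy.

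WARS2, the tryptophanyl enzyme (chromosome 1, 95721187 to 95816548, 6 exons), fell from 8.89, 10.5 and 11.2 CPM to 5.50, 6.58 and 8.53 CPM (log2 -0.55 ± 0.10, adjusted p = 6.7e-05). VARS2, the valyl enzyme (chromosome 20, 27210577 to 27223035, 30 exons), fell from 11.2, 12.6 and 14.4 CPM to 5.45, 9.74 and 10.7 CPM (log2 -0.46 ± 0.10, adjusted p = 6.8e-04). HARS2 (histidine), SARS2 (serine) and NARS2 (asparagine) fell by 0.38 ± 0.06, 0.24 ± 0.08 and 0.23 ± 0.08 on the log2 scale. The states did not overlap for WARS2, VARS2 and HARS2 but did for SARS2 and NARS2. The call of NARS2 (adjusted p = 0.0184) was lost without LM lactation pool 2 (adjusted p = 0.0514) or without MM lactation pool 2 (adjusted p = 0.0693), and in the lane 7 libraries alone (adjusted p = 0.356). The call of SARS2 (adjusted p = 0.0175) was lost under 4 settings (adjusted p = 0.0578 to 0.227), which used the libraries of 1 lane or the 12 libraries of the block fit.

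TARS2, the threonyl enzyme (chromosome 1, 99428927 to 99440775, 19 exons), was the mitochondrial gene called higher. It had 18.2, 20.9 and 22.02 CPM in late pregnancy and 19.8, 23.4 and 26.4 CPM in lactation, with overlapping states (log2 0.18 ± 0.07, adjusted p = 0.030). The call was lost without MM late pregnancy pool 2 (adjusted p = 0.0527), HM lactation pool 1 (0.084), HM lactation pool 2 (0.0646) or MM lactation pool 1 (0.0829), and under 6 other settings, and the change was negative with total reads alone as the scale.

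The remaining 7 mitochondrial genes were not called, and their states overlapped. IARS2, the isoleucyl enzyme (chromosome 12, 21715826 to 21762108, 23 exons), had by far the highest level of the mitochondrial enzymes, with 86.8, 93.6 and 103 CPM in late pregnancy and 87.2, 91.1 and 104 CPM in lactation (log2 -0.01 ± 0.05, adjusted p = 0.849). IARS2 passed the threshold as lower under upper quartile scaling (log2 -0.16, adjusted p = 0.0116), in limma on quantile-normalized RPKM (log2 -0.21, adjusted p = 0.00193) and with total reads alone as the scale. LARS2 (leucine) had 14.6, 16.2 and 19.6 CPM and then 15.9, 17.6 and 18.3 CPM (log2 0.07 ± 0.07). FARS2 (phenylalanine) had 10.4 to 17 CPM with a median of 12.9 and then 11.6, 13.7 and 18.7 CPM (log2 0.08 ± 0.12). AARS2, MARS2, EARS2 and YARS2, for alanine, methionine, glutamate and tyrosine, were low in both states. AARS2 had 7.31, 9.46 and 11.1 CPM and then 6.20, 9.80 and 11.3 CPM (log2 0.01 ± 0.12), and MARS2 had 6.503, 8.07 and 11.1 CPM and then 6.85, 8.18 and 8.97 CPM (log2 -0.03 ± 0.12). The feature of EARS2 overlaps UBFD1. EARS2 had 4.59, 5.58 and 7.31 CPM and then 5.15, 6.21 and 9.01 CPM (log2 0.15 ± 0.13), and YARS2 had 3.93, 4.95 and 6.47 CPM and then 4.20, 4.66 and 7.42 CPM (log2 -0.09 ± 0.15). With 22 to 54 reads on YARS2 and 29 to 74 on EARS2 per lactation library, small changes were not detectable at this depth.

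The summed levels of the compartments also moved apart, with KARS and GARS, which serve both, counted as cytosolic. The 20 cytosolic genes summed to 625.6, 668 and 699.7 CPM per kilobase of exon in the lowest, median and highest late pregnancy libraries and to 874, 971 and 1137 in lactation. The 15 mitochondrial genes summed to 110.5, 114 and 115 and then to 99.7, 102 and 109.6. The ratio of these sums, which no scaling of libraries changes, was 5.55, 5.79 and 6.13 before lambing and 8.13, 9.32 and 11.4 during lactation, so the states did not overlap. As a share of all reads, the cytosolic genes went from 0.268 to 0.310% down to 0.103 to 0.147%. As a share of reads outside the 7 milk protein genes, they went from 0.328 to 0.370% up to 0.427 to 0.543%, and the mitochondrial genes from 0.0542 to 0.0589% down to 0.0430 to 0.0484%. Such sums were not tested because the members were chosen with results of these data known.

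**Figure D3:**
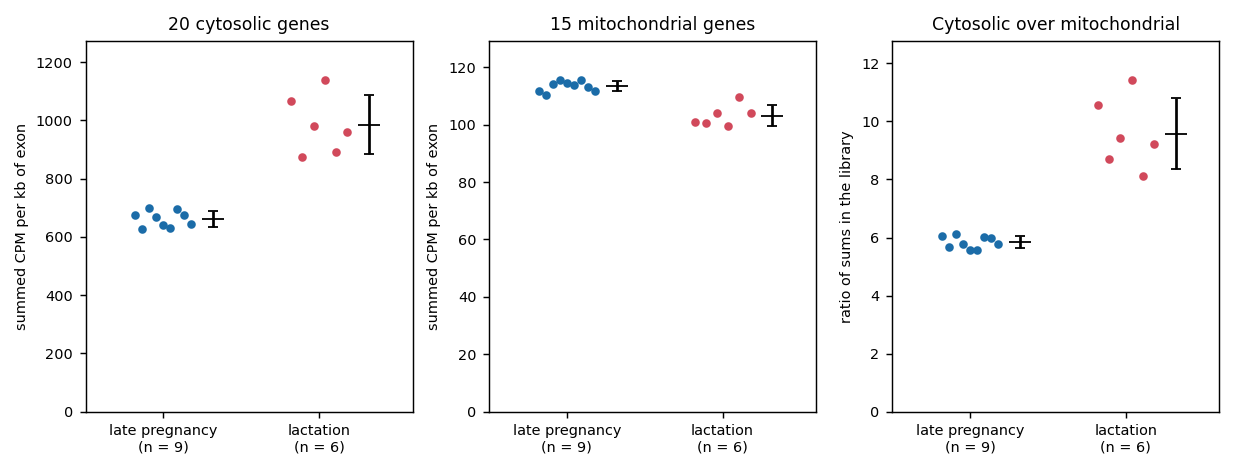
Summed CPM per kilobase of exon of the 20 cytosolic genes and the 15 mitochondrial genes, and the ratio of both sums, 1 point per library, with the mean and SD of each state as black bars (n = 9 and n = 6). The ratio is 5.55 to 6.13 for late pregnancy and 8.13 to 11.4 for lactation, whatever the scaling, while the rise of the cytosolic sum depends on the TMM scale.

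For 15 amino acids a cytosolic and a mitochondrial gene could be set side by side, in 16 pairs because phenylalanine has separate subunit genes and EPRS serves glutamate and proline. The cytosolic gene had the larger log2 change in 15 pairs, the exception being FARSB with FARS2. The ratio of cytosolic to mitochondrial level per kilobase was higher in every lactation library than in any late pregnancy library in 12 pairs, lower in 1 and overlapping in 3. Of all tested single genes 40.2% did not overlap between the states, and the share among other pairs of genes is not given. The widest gap was that of YARS and YARS2, whose ratio went from 5.03, 8.75 and 9.40 to 19.7, 28.5 and 34.1. EPRS to PARS2 went from 22.8, 27.6 and 37.6 to 73.2, 89.6 and 119. The ratio of FARSB to FARS2 was lower instead, at 4.91, 5.69 and 7.02 and then 2.23, 3.22 and 4.02. Ratios overlapped for EPRS to EARS2, IARS to IARS2 and RARS to RARS2. For isoleucine the cytosolic gene had the lower level in late pregnancy, with an IARS to IARS2 ratio of 0.614 to 0.744, against 0.718 to 1.14 in lactation.

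**Figure D4:**
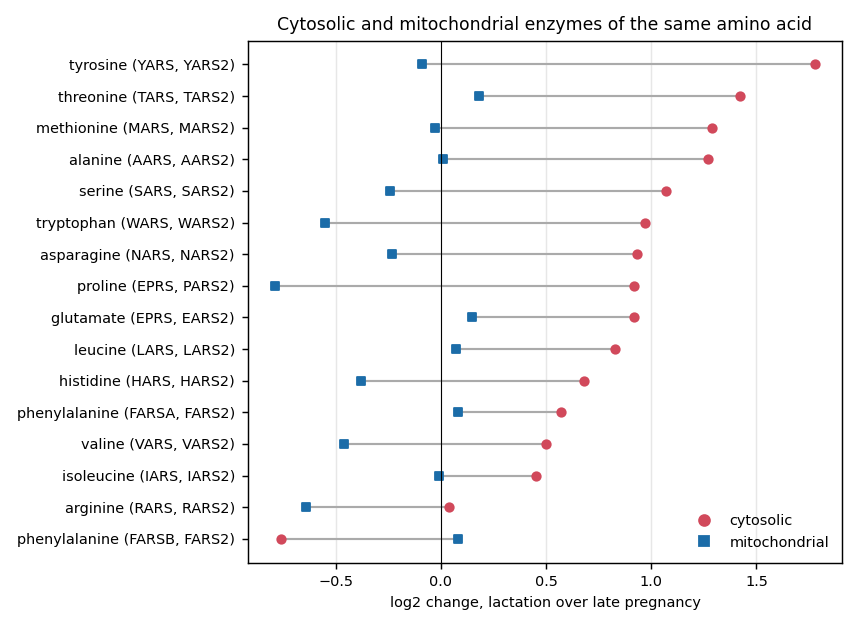
Log2 change of the cytosolic (red circles) and mitochondrial (blue squares) gene for the same amino acid, lactation over late pregnancy on the TMM scale, joined by a line for each of 16 pairs. The circle lies to the right in 15 pairs, from tyrosine at 1.78 and -0.09 to arginine at 0.04 and -0.64, and to the left for FARSB with FARS2 at -0.76 and 0.08. Total reads alone as the scale would move circles and squares to the left together.

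Some members with changes of different size or sign lie near each other on a chromosome. HARS and HARS2 lie on chromosome 5 at 49188738 to 49201792 and 49201824 to 49208940, 31 bases apart. HARS rose from 18.1, 22.1 and 23.1 CPM to 32.2, 34.5 and 37.1 CPM, and HARS2 fell from 25.7, 28.1 and 30.1 CPM to 19.0, 22.1 and 23.4 CPM. Their ratio per kilobase was 0.821 to 1.03 in late pregnancy and 1.73 to 2.21 in lactation. EPRS and IARS2 are 48322 bases apart on chromosome 12 with 1 feature between, and their ratio was 1.28 to 1.64 and then 2.17 to 3.14. VARS and VARS2 are farther apart on chromosome 20, with 525820 bases and 46 features between, and had ratios of 3.83 to 5.57 and 7.03 to 15.6.

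In level per kilobase of exon, the order of the cytosolic genes shifted between states. KARS led in late pregnancy at 160.0 ± 9.37 CPM per kilobase (SD, n = 9), above SARS at 52.7 ± 3.86 and FARSB at 52.0 ± 3.205, which did not differ beyond their spread. In lactation SARS led at 110.7 ± 22.3 (SD, n = 6), followed by KARS at 91.4 ± 5.17, WARS at 91.3 ± 23.6, TARS at 91.1 ± 12.7 and YARS at 84.0 ± 5.77, neighbours within their spread. YARS had ranked 11 of 20 in late pregnancy. LARS was lowest in both states, at 6.75 ± 0.724 and 12.1 ± 0.816, although few of its reads were uniquely placed. Between the highest and the lowest cytosolic gene the level differed 23.7-fold in late pregnancy and 9.19-fold in lactation. Among the mitochondrial genes IARS2 was highest, at 29.3 ± 1.74 and 29.0 ± 2.01, and PARS2 lowest, at 1.498 ± 0.172 and 0.862 ± 0.124. The median CV between libraries was 7.76% in late pregnancy and 11.4% in lactation for the cytosolic genes, and 9.27% and 13.2% for the mitochondrial genes.

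Reads on introns, the difference between the whole-gene and the exon count, can come from RNA not yet spliced, from unannotated exons or from overlapping genes, and gave another readout of the same genes from the same libraries. They were scaled by their own totals and tested over 10344 genes, of which 29.0% were called higher in lactation and 29.0% lower. Of 19 cytosolic genes tested 15 were called higher and 1 lower, with a median log2 change of 1.15. GARS and CARS had the largest intron changes, at 2.74 (adjusted p = 6.0e-13) and 2.36 (adjusted p = 2.8e-12), above their exon changes of 1.74 and 1.51. Intron reads on GARS went from 31.4, 35.5 and 45.3 to 144, 243 and 381 CPM of intron reads, without overlap. YARS, MARS and WARS followed at 2.05, 1.97 and 1.94, and WARS and MARS are among the genes with overlapping features. Of the 18 synthetase genes called higher in intron reads, FARSA, KARS and TARS2 turned to zero or below with total reads alone as the scale, and HARS (0.28, adjusted p = 0.217), LARS (0.05, adjusted p = 0.781) and LARS2 (0.15, adjusted p = 0.422) lost their calls, which left 11 cytosolic genes called higher.

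KARS had exon and intron changes of opposite sign, with a log2 change of 0.26 in intron reads (adjusted p = 0.045) against -0.81 on exons. Its intron reads had 36.3, 42.8 and 52.5 CPM in late pregnancy and 37.6, 53.0 and 59.0 CPM in lactation, so the states overlapped. That intron call was lost without any 1 of 9 libraries (late pregnancy pools HM 1, LM 1, LM 2, LM 3 and MM 3, lactation pools HM 1, HM 2, LM 1 and MM 2; adjusted p up to 0.106), and the change was -0.37 with total reads alone as the scale. FARSB was lower in intron reads by a log2 change of -0.33 (adjusted p = 0.0443), a call lost without any 1 of 8 libraries (late pregnancy pools HM 1, HM 2, HM 3 and LM 2, lactation pools HM 1, LM 1, LM 2 and MM 1; adjusted p up to 0.146). QARS, AARS2, MARS2 and PARS2 could not be tested for introns.

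Of 12 mitochondrial genes tested for intron reads 3 were called higher and 2 lower. FARS2 had the largest difference between the readouts, with a log2 change of 1.46 in intron reads (adjusted p = 7.3e-12) and 0.08 on exons. Its intron reads rose from 79.8, 95.7 and 108 to 192, 262 and 310.5 CPM of intron reads, and made up 46.1% of all reads on the gene in late pregnancy and 70.3% in lactation. LARS2 intron reads rose by 0.75 (adjusted p = 9.2e-06), a call lost with total reads alone as the scale, against 0.07 on exons, and TARS2 intron reads by 0.42 (adjusted p = 0.0092). RARS2 fell in both readouts, by 0.38 (adjusted p = 2.6e-04) in intron reads. IARS2 intron reads were called lower at -0.30 (adjusted p = 0.0189), a call lost without HM lactation pool 1 (adjusted p = 0.0599) or LM lactation pool 1 (adjusted p = 0.0591).

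**Figure D5:**
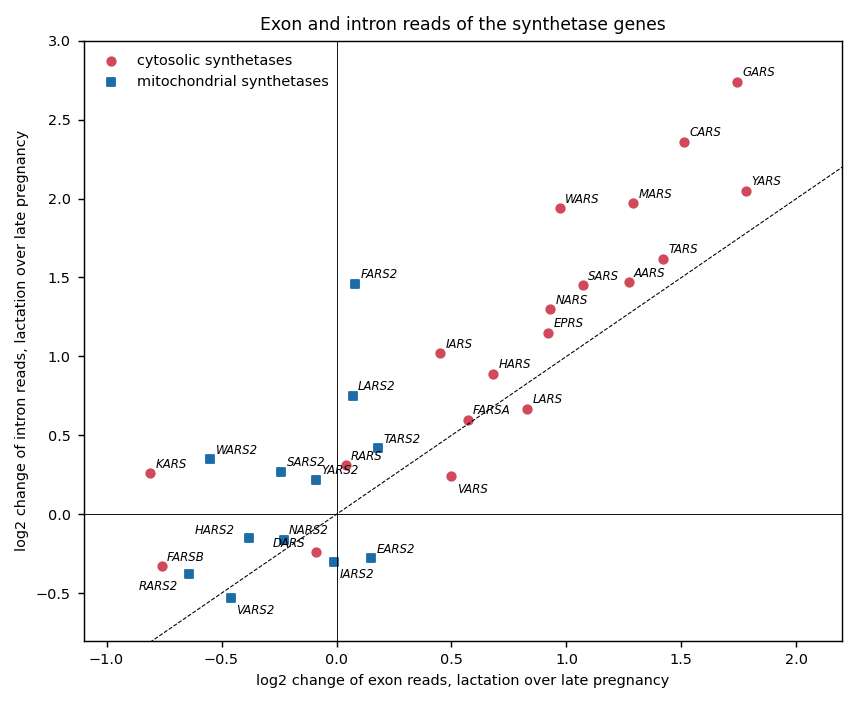
Log2 change of intron reads against that of exon reads, lactation over late pregnancy on the TMM scale of each, for 31 synthetase genes with enough intron reads, cytosolic genes as red circles and mitochondrial genes as blue squares, with equality dashed. GARS lies at 1.74 and 2.74, FARS2 at 0.08 and 1.46 and KARS at -0.81 and 0.26. With total reads alone as the scale, KARS, FARSA and TARS2 turn to zero or below in intron reads and the exon changes called higher turn negative.

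Genes that work beside the synthetases were mixed. Among partners of mitochondrial charging, the symbols GATB and GATC did not match a feature. In mitochondria, where glutamine is attached indirectly by an amidotransferase, QRSL1, its catalytic subunit, fell by 0.29 ± 0.09 on the log2 scale (adjusted p = 0.00676) with overlapping states. PET112, an older symbol of GATB and another subunit, had 5.12 to 8.65 CPM and then 4.40 to 6.66 CPM and was not called (adjusted p = 0.091). MTFMT, which formylates the initiator methionyl transfer RNA, fell from 6.94, 8.02 and 8.75 CPM to 3.81, 5.399 and 6.35 CPM (log2 -0.56 ± 0.11, adjusted p = 1.2e-04).

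Of the trans-editing genes, which clear wrongly charged transfer RNA, and their homologues, 1 of 4 rose and 1 fell. Of all tested genes 33.1% were called higher and 35.2% lower. The symbol PRORSD1 did not match a feature. DTD2, a deacylase, rose from 2.01, 3.46 and 4.40 CPM to 4.92, 5.68 and 7.78 CPM (log2 0.84 ± 0.15, adjusted p = 4.4e-05). DTD1, which removes D-amino acids from transfer RNA, fell from 12.9, 14.7 and 18.3 CPM to 7.87, 8.68 and 11.7 CPM (log2 -0.70 ± 0.10, adjusted p = 4.1e-06). AARSD1 and TARSL2 had log2 changes of -0.07 ± 0.08 and -0.02 ± 0.19 and were not called. SEPSECS, the last enzyme of selenocysteine synthesis on its transfer RNA, rose from 3.07, 3.95 and 4.66 CPM to 4.75, 5.96 and 6.86 CPM (log2 0.57 ± 0.13, adjusted p = 5.0e-04). PSTK, the kinase before it, was not called (log2 -0.38 ± 0.21, adjusted p = 0.171). With 4 to 9 reads on PSTK and 4 to 11 on TARSL2 per lactation library, small changes of both genes were not detectable. XPOT, the exporter of transfer RNA from the nucleus, had 145, 162 and 174 CPM in late pregnancy and 145, 162 and 179.6 CPM in lactation (log2 0.00 ± 0.05, adjusted p = 0.97).

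Whether the feed of the dams altered synthetase expression was asked in late pregnancy over 3 groups of 3 pools. By edgeR 0 of 35 members were called, as were 0 of 13747 tested genes (0.0%), of which 4.15% had an unadjusted p under 0.05. Of the members 0 had such a p, the smallest being that of MARS (unadjusted p = 0.0654 by edgeR), and DESeq2 called 0 members. The change with state did not differ detectably between dam groups either, with 0 members called by edgeR for the interaction and 0 of 13345 genes (0.0%, and 6.56% at an unadjusted p under 0.05). Of the members 0 had an unadjusted p under 0.05 by edgeR, where the smallest was that of VARS (adjusted p = 0.76, with log2 changes of 0.70 in HM, 0.46 in LM and 0.34 in MM pools), and DESeq2 called 0 members with 3 cytosolic genes under 0.05 unadjusted.

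Within the dam groups, on the TMM scale and without a test, the median log2 change of the cytosolic genes was 0.89 in HM, 0.91 in LM and 0.68 in MM pools, and that of the mitochondrial genes was -0.05, -0.13 and -0.23. The largest cytosolic changes in the groups were 1.75 for GARS in HM, 2.12 for GARS in LM and 1.68 for YARS in MM pools. With 2 lactation pools in a group, a difference in size between the groups would need to be large to be detected.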

How the data were processed

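Pooled RNA was sequenced with paired reads on an Illumina HiSeq instrument. The authors mapped reads in CLC Genomics Workbench to sheep genome version 3.2 by the methods of the study, whereas the submitters' processing notes name Oar_v3.1; coordinates here are those of the deposited table, and the counting settings are not given in the sources used here. The deposited counts give, per gene, reads within exons and reads within its whole span, not normalized. The authors' RPKM divide those counts by exon length and by reads on genes, and recomputed RPKM differed by at most 3.48e-07 of their value. The deposited normalized values, a score per gene, are the authors' quantile-normalized RPKM. Fold changes and p-values of the authors' own comparison were not used.

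Exon counts (whole-gene counts for 5583 features lacking a transcript) were fitted with edgeR 4.0.16 in R 4.3.3. Features passed filterByExpr by state, libraries were TMM-scaled, and a quasi-likelihood F-test without covariates compared 9 late pregnancy with 6 lactation libraries, with Benjamini-Hochberg adjustment over all tested genes. Reads used came to 6471237 to 16898986 per library in late pregnancy and 9014506 to 24001031 in lactation. Intron reads were tested likewise. An F-test over the late pregnancy libraries compared the dam groups, and their interaction with state used all 15. Samples of a state are separate pools, so p-values measure the spread between pools. The test of states treats all libraries as independent, although ewes are shared between the states. Within a group, counts differed by 5.5 to 28.5 times the sampling noise (chi-square per degree of freedom), so no library was taken for a copy of another. Alternatives used DESeq2 1.42.0, limma 3.58.1 on log2(quantile-normalized RPKM + 1), other scalings, filters, read classes, lanes, a block and each library left out. The test was checked on simulated data with 200 changed genes, as many raised as lowered. Those data held no shift toward milk protein reads, so that check does not cover the choice of scale. The members and lists were chosen with earlier results of these data known. Every member found is named, and 1 gene of another list is not reported here. Lowest, median and highest values are given for the 4 largest rises and falls in each compartment, the highest member of each and the members not called, and other genes given so were picked after their values were seen.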

Additional observations from a re-analysis of the deposited data

Results flagged for a closer look

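In 4 of 70 sets of libraries of 1 member in 1 state, 1 library stood far from the others, and chance alone picks out about 1 in 20 such sets. DARS had 50.4 CPM in LM late pregnancy pool 2, where the other 8 late pregnancy libraries had 40.6 to 45.0. AARS2 had 6.20 CPM in MM lactation pool 2, where the other lactation libraries had 9.14 to 11.3. VARS2 had 5.45 CPM in HM lactation pool 2 and 9.33 to 10.7 in the others, and its call as lower was kept without that library. YARS2 had 7.42 CPM in LM lactation pool 2 and 4.20 to 4.84 in the others.

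For FARS2 the log2 change between states was -0.26 in HM pools and 0.18 in MM pools, and for IARS2 it was -0.13 in LM pools and 0.12 in MM pools, with the libraries of the states apart in opposite directions. Neither gene was called for the interaction of state and dam group by edgeR (adjusted p = 0.828 for FARS2 and 0.811 for IARS2). A contrast of only those pairs of groups was not tested. Each group holds 3 late pregnancy and 2 lactation pools, so states can easily lie apart in a group by chance. The share of all genes with such a pattern is not given.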

How the results depend on the processing

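The comparison of states was run under 29 other settings and that of intron reads under 18. Scaling to total reads alone (edgeR) turned the cytosolic counts to 0 higher and 18 lower (median log2 change -1.03) and the mitochondrial counts to 0 and 15 (median -2.0). It reversed AARS (-0.63), CARS (-0.39), EPRS (-0.99), FARSA (-1.33), GARS (-0.16), HARS (-1.22), IARS (-1.45), LARS (-1.08), MARS (-0.61), NARS (-0.97), RARS (-1.86), SARS (-0.83), TARS (-0.49), VARS (-1.40), WARS (-0.93), YARS (-0.13), AARS2 (-1.89), EARS2 (-1.76), FARS2 (-1.82), LARS2 (-1.83) and TARS2 (-1.72), with all genes at a median of -1.94. Under every other setting all 15 cytosolic calls of higher expression were kept. Mitochondrial genes called higher numbered 0 under upper quartile scaling, no filter, a minimum of 10 reads in every library, limma, lane 8 alone and reads across exon junctions, and 0 to 1 with each library left out, the gene being TARS2 throughout. NARS2 lost its call with lane 7 alone (adjusted p = 0.356), and SARS2 lost its call with the replicate block, in the same 12 libraries without it and with lane 7 or lane 8 alone (adjusted p = 0.0578 to 0.227).

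For intron reads, total reads alone as the scale gave 11 cytosolic genes higher and 3 lower and 1 mitochondrial gene higher and 6 lower, with FARSA at -0.00, KARS at -0.37 and TARS2 at -0.19. The scaling of exon reads gave 0 cytosolic genes lower, and 5 mitochondrial genes higher and 1 lower, by edgeR. With each library left out, cytosolic genes lower numbered 0 to 2, mitochondrial genes higher 3 to 5 and mitochondrial genes lower 1 to 2. Intron calls were gained by DARS without late pregnancy pool LM 1 or MM 1, by VARS without lactation pool MM 2, by SARS2 without late pregnancy pool MM 3 or lactation pool HM 1, and by WARS2 without late pregnancy pool MM 2 or MM 3 or lactation pool LM 1 or LM 2. In all, 24 of 1570 single-gene values reversed, 42 lost their call and 29 gained one, and the causes were not tested beyond the scale itself.

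Whether the pool numbers pair the samples was not settled. With 2 lactation pools in a group, their deviations from the group mean mirror each other, so a match by number could hardly be seen. Deviations of same-numbered libraries from their group means correlated at -0.04 to 0.057 over 6 pairs, and 0 of 6 lactation libraries matched best with its own number. Taken from state means, these correlations were -0.0283 to 0.0922, and 2 of 6 matched best with their own number. With pool number as a replicate block over 12 libraries, 15 cytosolic genes were called higher and 3 lower (median 0.83) and 1 and 6 mitochondrial genes, and 8324 genes in all against 8496 without the block. Junction reads, the 12-library fit without the block and leaving out libraries for introns were added after seeing the data. Promoter motifs and the amino acid content of milk proteins, including the alternative with equal weight for every protein, were not run. Among the members, low counts limit PARS2, YARS2 and EARS2 most, at 5 to 15, 22 to 54 and 29 to 74 reads per lactation library.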

Other observations

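The extreme values of the cytosolic genes gathered in a few libraries. No such count over all tested genes stands beside this, so the pattern is not shown to be particular to the synthetases. Among the 6 lactation libraries, LM pool 2 had the highest CPM in 9 of the 20 genes and HM pool 1 in 7, while HM pool 2 had the lowest in 7 and MM pool 1 in 5. Among the 9 late pregnancy libraries, MM pool 1 and MM pool 2 had the highest in 7 genes each and HM pool 3 in 5. For the 15 mitochondrial genes no lactation library had the highest value in more than 4. Among the genes that work beside mitochondrial synthetases, MTFMT and QRSL1 had intron log2 changes of -0.88 (adjusted p = 4.8e-07) and -0.45 (adjusted p = 0.00149) by edgeR, both lower in lactation, as their exon reads were.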
